A study of Mus musculus with 2 samples.

Results

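The SoxB genes are the 5 members of the Sox family of transcription factors listed in the deposited mm10 gene table as Sox1, Sox2, Sox3, Sox14 and Sox21. They were chosen by gene symbol, and all 5 of them (gene identifiers 20664, 20674, 20675, 20669 and 223227, in that order) were found among the 45777 genes of the table. RNA-seq was available for 1 library of an E14-derived teratoma (the wild-type library) and 1 library of an E14-Sox2TA/WT-derived teratoma (the Sox2TA/WT library), in whose cells 1 allele of Sox2 has the T258A change and the other is wild type. The parental E14 cells are mouse ESCs, and the edited cells were selected as clones grown from single cells after CRISPR/Cas9 editing. Per the paper, E14 cells were grown with serum and leukemia inhibitory factor. The edited clones were kept with the inhibitors PD0325901 and CHIR99021 in addition, which were removed before the experiments. The cells of either genotype were inoculated under the skin of BALB/c-nu mice, 3 mice per group, and the teratomas were harvested at 14 days. How many teratomas or mice went into each library is not stated. The host is also a mouse, so host and tumor transcripts share the same rows, and the table does not separate the alleles of Sox2.

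SoxB proteins bind DNA through a high-mobility group (HMG) box, which fits into the minor groove and bends the helix. The SoxB1 proteins Sox1, Sox2 and Sox3 act mainly as activators and keep neural progenitors in an undifferentiated state, and Sox2 is in addition a core factor of pluripotent cells, where it works with Oct4 (the product of Pou5f1). The SoxB2 proteins Sox14 and Sox21 carry a closely related HMG box but act mainly as repressors, and Sox21 counteracts SoxB1 proteins when progenitors turn into neurons. The comparison addresses how transcripts of these factors stood in teratomas after loss of an O-GlcNAc acceptor residue in Sox2.

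The edited residue lies outside the HMG box. On GRCm38, the build also called mm10, Sox2 has 1 exon on the plus strand of chromosome 3, and codon 258 occupies 34651187 to 34651189 within its coding sequence. The reference sequence around it, chr3:34651157-34651219 in the GENCODE transcript, is shown unedited because the T258A change was made there. The threonine codon is in capitals. The paper's donor DNA has gcc in its place, and also aga in place of the agg that follows cactcc. Whether the edited allele holds this further change is not stated in the paper's text.

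Sox2: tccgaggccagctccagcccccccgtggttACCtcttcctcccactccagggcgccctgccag

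In the GENCODE models that were used, each of the 5 genes is a single exon, and the coding sequences run from 240 codons in Sox14 to 450 in Sox3. The genes extend over chr8:12395295-12400126 (Sox1), chr3:34650405-34652461 (Sox2), chrX:60891366-60893430 (Sox3), chr9:99874106-99876170 (Sox14) and chr14:118233232-118237030 (Sox21), so that each lies on a chromosome of its own. Aligned without gaps, the most conserved block of 237 bases lay at codons 41 to 119 of Sox2, 49 to 127 of Sox1, 142 to 220 of Sox3 and 6 to 84 of both Sox14 and Sox21. Over this block, base identity between pairs of members ranged from 84.0% (Sox3 and Sox14) to 89.5% (Sox1 and Sox2). The most conserved 60 bases within the coding sequences are shown to make visible how alike the members are and where reads from one could resemble another. Capitals mark bases that differ from Sox2, and the positions on GRCm38 are chr8:12396553-12396612 (plus strand) for Sox1, chr3:34650584-34650643 (plus) for Sox2, chrX:60892900-60892959 (minus) for Sox3, chr9:99875562-99875621 (minus) for Sox14 and chr14:118235513-118235572 (minus) for Sox21.

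Sox1: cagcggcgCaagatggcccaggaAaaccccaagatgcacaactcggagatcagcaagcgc
Sox2: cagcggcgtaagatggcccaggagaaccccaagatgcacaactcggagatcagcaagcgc
Sox3: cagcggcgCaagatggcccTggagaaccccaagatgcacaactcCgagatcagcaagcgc
Sox14: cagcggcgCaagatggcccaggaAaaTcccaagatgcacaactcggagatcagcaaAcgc
Sox21: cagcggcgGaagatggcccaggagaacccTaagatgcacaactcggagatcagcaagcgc

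Between 2 and 4 of these 60 bases differed from Sox2 in each of the other members. Over the whole transcripts, the longest stretch that any pair shared without a mismatch was 45 bases, between Sox1 and Sox3, and Sox2 shared at most 38 bases with another member.

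A total of 50529171 reads were counted on genes in the wild-type library and 49030281 in the Sox2TA/WT library. With 1 library per group, no difference below has a replicate check in these libraries, and no p-value was computed. Apart from them, the paper measured Sox1 among its ectodermal markers by qPCR of teratomas. It reported these markers as lower with the edited cells and mesendodermal markers as higher. Intervals of levels and folds are exact 95% intervals of the read counts, cover counting error only and compare the libraries, not the genotypes. Fold changes are ratios of TPM (a level scaled by transcript length and by the library's sum). The study's rule, a fold change above 2 with a TPM of 10 or more in either library, is used as a description. Applied here, it called more genes in each direction than the paper reports for the teratomas. The reason for this difference was not tested. The libraries also differed apart from Sox2. The 4 Y-linked genes Eif2s3y, Ddx3y, Uty and Kdm5d had 5453 reads in the wild-type library and 0 in the Sox2TA/WT library, and mitochondrial and hemoglobin genes held 5.21% and 9.74% of the TPM. Without the mitochondrial and hemoglobin genes, the fold was 4.82 for Sox1, 1.80 for Sox2, 3.72 for Sox3 and 2.40 for Sox21, all lower in the Sox2TA/WT library. The part of the other differences in the SoxB values was not tested.

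All 5 SoxB genes had a lower TPM in the Sox2TA/WT library. Sox1 and Sox3 were lower by the most among the members with a TPM above 10 in the wild-type library, Sox21 was lower by less, and Sox2 by the least. Of the 4 members that the rule could test, 3 (Sox1, Sox3 and Sox21) were lower past 2-fold and 0 were higher, beside 18.7% of all 11578 genes tested that were lower and 10.8% that were higher. Sox2 did not reach 2-fold, and Sox14 was below the TPM minimum in both libraries. In whole teratomas, fewer cells that express a gene and less RNA of it per cell cannot be told apart.

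Among the SoxB1 genes, Sox2 had by far the highest level. It had 14585 reads and a TPM of 246 (242 to 250) in the wild-type library, against 8623 reads and a TPM of 130 (127 to 133) in the Sox2TA/WT library. Its level was thus 1.89-fold lower (1.84 to 1.94), short of the rule on every scaling tried, where the fold ranged down to 1.64 with read counts scaled by library total. Sox2 therefore remained an abundant transcript in the library from the edited cells.

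Sox1, one of the earliest genes specific to the neural plate, had 4696 reads and a TPM of 48.3 (47.0 to 49.7) in the wild-type library. In the Sox2TA/WT library it had 1036 reads and a TPM of 9.55 (8.97 to 10.1), which is 5.06-fold lower (4.73 to 5.42). Sox1 lies on chromosome 8, where 36.0% of the 634 genes tested were lower past 2-fold, and relative to the median of its chromosome Sox1 was 3.13-fold lower. The part of the chromosome-wide difference in the value of Sox1 was not tested.

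Sox3, an X-linked gene of neural progenitors, the hypothalamus and the pituitary, had 1664 reads and a TPM of 33.5 (31.9 to 35.1) in the wild-type library. The Sox2TA/WT library had 476 reads and a TPM of 8.57 (7.81 to 9.37), 3.91-fold lower (3.53 to 4.34). Of the 421 genes tested on chromosome X, 24.0% were lower past 2-fold, and the fold of Sox3 relative to the median of chromosome X was 3.47.

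Of the SoxB2 genes, Sox21 had 3443 reads and a TPM of 37.7 (36.4 to 38.9) in the wild-type library and 1527 reads and a TPM of 15.0 (14.2 to 15.7) in the Sox2TA/WT library. This was 2.52-fold lower (2.37 to 2.68), and relative to the median of chromosome 14 the fold was 2.06, close to the threshold. Sox14, which marks subsets of interneurons in the spinal cord and brain, was rare in both libraries. It had 163 reads in the wild-type library and 3 in the Sox2TA/WT library. With so few reads, its fold by TPM, 90.4 (30.4 to 443), and its fold by read counts scaled by library total, 52.7 (17.7 to 258), are imprecise, and both are relative to a level near the limit of detection.

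**Figure D1:**
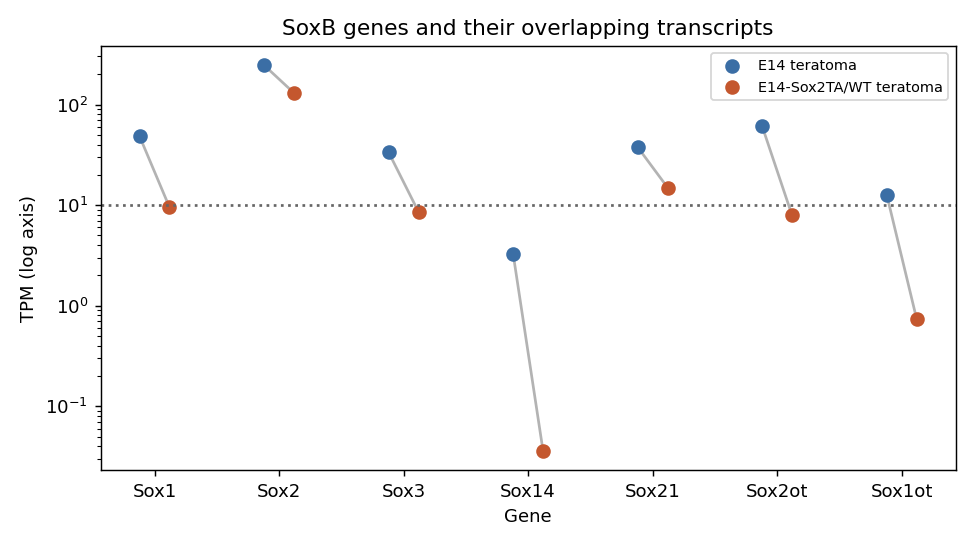
TPM on a log axis for each SoxB gene and for the noncoding transcripts Sox2ot and Sox1ot, with a blue point for the wild-type (E14) library, an orange point for the Sox2TA/WT library and a dotted line at a TPM of 10. The orange point is below the blue point for each gene, with the smallest step for Sox2 (246 to 130) and the largest for Sox14 (3.26 to 0.0360).

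The order of the levels also differed between the libraries. In the wild-type library the TPM was highest for Sox2, followed by Sox1, Sox21, Sox3 and Sox14, and no counting intervals of neighbors in this order overlapped. In the Sox2TA/WT library Sox21 stood above Sox1, and the counting intervals of Sox1 and Sox3 overlapped, so that these neighbors were not distinguishable at this depth. Without replicates, the spread of these levels between teratomas is unknown.

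Ratios between members within a library do not depend on how the libraries are scaled, and they set Sox2 apart from the other SoxB1 genes. Sox2 made up 66.7% of the summed TPM of the SoxB genes in the wild-type library and 79.7% in the Sox2TA/WT library. The share of Sox1 was 13.1% and 5.85%, and that of Sox3 was 9.09% and 5.25%. The share of Sox21 was 10.2% and 9.17%. The summed TPM of the 5 genes was 368 in the wild-type library and 163 in the Sox2TA/WT library, 2.26-fold lower, and SoxB1 genes made up 88.9% and 90.8% of it.

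In read counts, the fold of Sox1 exceeded that of Sox2 by a factor of 2.68 (2.49 to 2.88). The fold of Sox3 exceeded that of Sox2 by a factor of 2.07 (1.86 to 2.30), and that of Sox21 exceeded that of Sox2 by 1.33 (1.25 to 1.42). Among the pairs that do not include Sox2 or Sox14, Sox1 exceeded Sox3 by a factor of 1.30 (1.14 to 1.47) and Sox21 by 2.01 (1.83 to 2.2), and Sox3 exceeded Sox21 by 1.55 (1.38 to 1.75). Each of these intervals lay above 1, so the members differed in their folds by more than counting error.

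**Figure D2:**
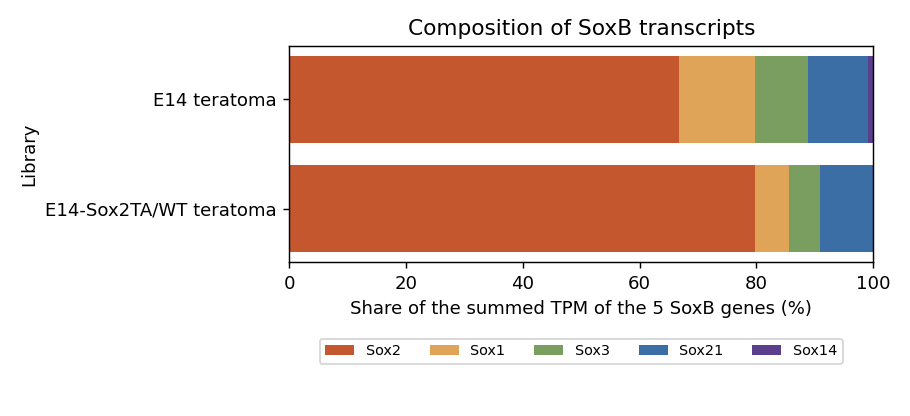
Share of the summed TPM of the 5 SoxB genes, in percent, held by each gene in each library, with 1 horizontal bar per library. Sox2 holds 66.7% of the bar for the wild-type library and 79.7% for the Sox2TA/WT library, while the share of Sox1 goes from 13.1% to 5.85%.

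Both Sox2 and Sox1 lie inside introns of longer noncoding genes on the same strand, Sox2ot and Sox1ot, with which they shared 0 exon bases in the GENCODE models. On GRCm38, Sox2ot extends over chr3:34104270-34682619 and Sox1ot over chr8:12385771-12436768. Sox2ot had 4329 reads and a TPM of 60.6 in the wild-type library and 630 reads and a TPM of 7.89 in the Sox2TA/WT library, 7.67-fold lower (7.06 to 8.36). In read counts, this fold exceeded that of Sox2 by a factor of 4.06 (3.72 to 4.44). Sox1ot had 1544 reads and a TPM of 12.7 against 101 reads and a TPM of 0.738, 17.1-fold lower (14.01 to 21.2), and its fold exceeded that of Sox1 by a factor of 3.37 (2.72 to 4.21). The noncoding hosts were thus lower by more than the SoxB1 genes inside them. The strand setting of the counting is not stated, and reads of unspliced host transcripts over the SoxB exons cannot be told apart from reads of the SoxB genes.

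Sox21 overlaps a noncoding gene on the opposite strand by 713 exon bases (Gm4675 in GENCODE, LOC105245869 in the deposited table by its position). That gene had 88 reads in the wild-type library and 79 in the Sox2TA/WT library, few beside the 3443 and 1527 of Sox21.

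Other genes with a TPM of 1 or more in either library within 500 kb of each member were read next, a choice made after the values had been seen. Near Sox1, 4 genes could be tested by the rule and 2 were lower, Sox1ot and Mcf2l, whose TPM was 37.7 in the wild-type library and 11.0 in the Sox2TA/WT library. Near Sox2, Sox2ot was the 1 gene that could be tested. Near Sox14, 1 of 5 genes tested was lower, and near Sox21 this was 0 of 4. Near Sox3, 5 genes were found and none reached a TPM of 10. No neighbor of any member was higher past the rule, beside 18.7% of all genes tested that were lower and 10.8% that were higher. Neighbors below the TPM minimum went both ways. Near Sox2, Gm38509 had 4 reads in the wild-type library and 83 in the Sox2TA/WT library. Near Sox3, Gm38438 had 31 and 13, and Gm4988 had 114 and 56.

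The 250 bases before the RefSeq start of the gene are shown for Sox2, Sox14 and Sox21 on GRCm38.p6, all of which had a lower TPM in the same library. RefSeq promoters matched 4 of the 5 members, all but Sox3. The window of Sox1, which was lower too, was searched but is not printed. For Sox1 and Sox2 the RefSeq start differs from the start of the GENCODE model given above. Capitals mark CCAAT, a motif common in promoters, and ACAAAG, a form of the Sox binding motif, searched on both strands. The windows are chr3:34649745-34649994 (plus strand) for Sox2, chr9:99876171-99876420 (minus) for Sox14 and chr14:118237031-118237280 (minus) for Sox21.

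Sox2: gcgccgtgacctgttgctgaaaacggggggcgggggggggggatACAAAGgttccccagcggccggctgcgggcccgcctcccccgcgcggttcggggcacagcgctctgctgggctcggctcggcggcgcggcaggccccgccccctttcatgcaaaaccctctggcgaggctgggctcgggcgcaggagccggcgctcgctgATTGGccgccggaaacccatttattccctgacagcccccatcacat
Sox14: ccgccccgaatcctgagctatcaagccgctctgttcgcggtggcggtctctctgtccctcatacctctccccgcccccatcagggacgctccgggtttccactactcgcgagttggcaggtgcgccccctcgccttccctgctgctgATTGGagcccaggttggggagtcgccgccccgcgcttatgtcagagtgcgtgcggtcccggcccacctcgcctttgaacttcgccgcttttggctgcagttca
Sox21: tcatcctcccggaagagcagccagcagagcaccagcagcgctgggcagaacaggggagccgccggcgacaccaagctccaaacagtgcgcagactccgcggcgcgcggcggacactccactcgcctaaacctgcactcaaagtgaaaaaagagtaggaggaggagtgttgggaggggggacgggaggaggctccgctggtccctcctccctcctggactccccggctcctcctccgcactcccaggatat

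CCAAT was present 1 time each in the windows of Sox1, Sox2 and Sox14 and was absent from that of Sox21, while 33.8% of all 32851 promoter windows of this length hold it. ACAAAG was present in the window of Sox2, 206 bases before the start, and in 16.5% of all windows. Neither ACAAT, another form of the Sox motif, nor the octamer ATGCAAAT bound by Oct factors was found in any of the 4 windows. These motifs are in 27.7% and 1.60% of all windows. The windows were rich in G and C, from 65.2% in Sox21 to 72.0% in Sox2, beside a median of 52.4% over all windows.

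Beside the SoxB genes, the other 15 Sox genes of the table went both ways. Of the 11 that could be tested, 7 were lower in the Sox2TA/WT library, 1 was higher and 3 were neither. All 3 SoxE genes were lower, among them Sox9, a factor of cartilage and glia, whose TPM was 44.1 in the wild-type library and 16.9 in the Sox2TA/WT library. Of the SoxC genes, which act in immature neurons and mesenchyme, 2 of 3 were lower, and Sox4 had a TPM of 156 and 85.1. In SoxD 2 of 3 genes were lower, and Sox13 had a TPM of 24.0 and 22.6. Sox15, the single SoxG gene, was the 1 Sox gene that was higher past the rule, at 1.86 and 12.6. In SoxF, whose members act in endothelium and endoderm, Sox18 was neither higher nor lower, at 9.15 and 10.5, and the other 2 were below the TPM minimum in both libraries. Their levels, named after the values were seen, were 2.11 and 6.58 for Sox7 and 2.15 and 8.16 for Sox17, which is higher in the Sox2TA/WT library by 3.12-fold (2.62 to 3.73) and 3.80-fold (3.25 to 4.47). Sry of SoxA and Sox30 of SoxH had a TPM under 1 in both libraries.

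**Figure D3:**
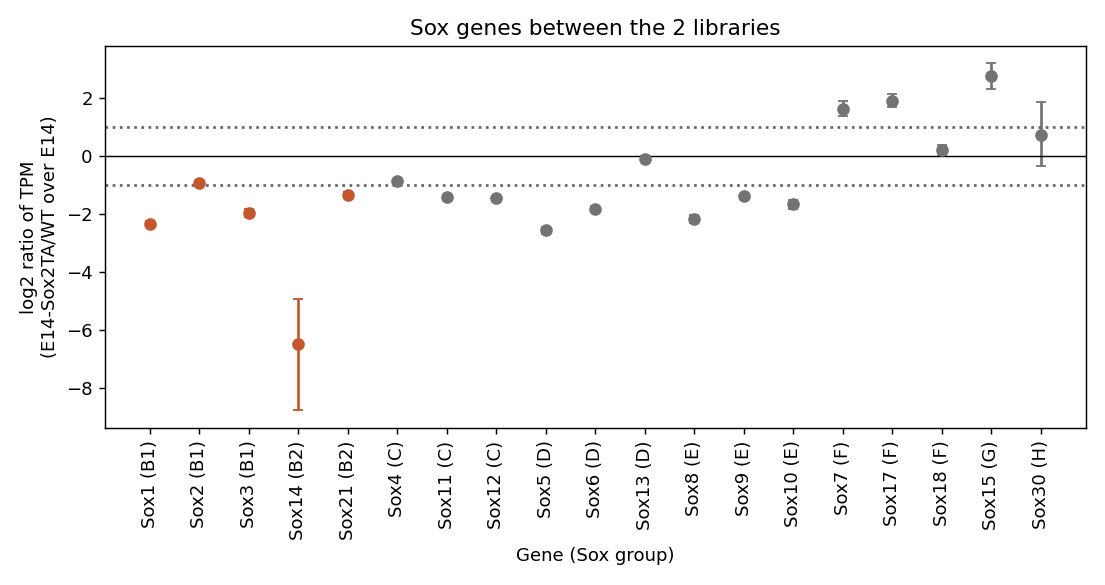
Log2 ratio of TPM (Sox2TA/WT over wild-type library) for each Sox gene with reads, ordered by Sox group, with SoxB genes in orange, other groups in gray, bars for the 95% counting interval and dotted lines at a 2-fold change. All SoxB points lie below 0, with Sox2 at -0.92 inside the dotted line and Sox14 at -6.50, and the points for SoxF, Sox15 and Sox30 lie above 0.

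The genes that work with or downstream of SoxB1 factors were taken from lists assembled by hand. Their medians are log2 ratios with 1 added to each TPM, taken over genes whose TPM reached 1 in either library. Over all 18558 such genes the median was -0.06, and 52.5% were below 0. The partners of Sox2 in pluripotent cells stood opposite to Sox2 itself, with 6 of 6 genes tested higher in the Sox2TA/WT library, 0 lower and a median of 3.09. Pou5f1 had a TPM of 19.0 in the wild-type library and 304 in the Sox2TA/WT library, and Nanog had 8.37 and 116. Per unit of Sox2 TPM, Pou5f1 was at 0.0775 in the wild-type library and 2.34 in the Sox2TA/WT library, so that its transcript level passed that of Sox2.

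Targets of Sox2 and Oct4 in pluripotent cells were likewise higher, 9 of 9 tested, with a median of 3.84. Dppa5a, a marker of pluripotent cells, had a TPM of 29.1 and 1144, and Fbxo15 had 3.65 and 102. The list shares Pou5f1 and Nanog with the list of partners, so the lists are not independent. Sox2 was thus lower in the library in which its pluripotency partners and targets were higher.

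Partners of SoxB1 factors in neural cells were lower or did not pass the rule. Of 7 genes tested, 4 were lower and 0 higher, with a median of -1.22. Pou3f3, a POU factor of the developing brain, had a TPM of 44.6 in the wild-type library and 11.4 in the Sox2TA/WT library. Nr2e1, a nuclear receptor of neural stem cells, had 13.98 and 0.375. Rfx4, a factor of the dorsal brain, had 50.4 and 34.7, which did not pass.

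Of 8 genes tested among the SoxB1 targets in neural cells, 5 were lower and 0 higher, with a median of -0.72 whose 95% order-statistic interval over the genes of the list spanned 0 (-1.83 to 0.38). Fabp7, a fatty acid binding protein of radial glia, had a TPM of 2497 and 708, and the Notch effector Hes5 had 52.8 and 12.2. Neurog2, a proneural factor, had 26.3 and 6.65. Ccnd1, which drives entry into the cell cycle, had 126 and 92.6 and did not pass. Of the 11 genes of the list, 8 had a log2 ratio below 0 and 3 above. These 3 were Shh, Gli2 and Gli3, named after their values were seen. Shh, at 45.6 and 59.5, did not pass, and Gli2 and Gli3 were below the TPM minimum.

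Markers of neural progenitors, the cells in which SoxB1 genes are best known, share Fabp7, Hes5, Nes, Notch1 and Gli3 with the list of targets and Pax6 and Rfx4 with that of neural partners, and had a median of -1.02, with 7 of 13 tested lower and 0 higher. The intermediate filament Vim had a TPM of 1530 and 914, a difference below 2-fold as for Sox2, and Zic1 had 75.8 and 13.0. Of the markers of neurons, in which SoxB1 genes are mostly turned off, 11 of 12 tested were lower, with a median of -2.22. The neuronal tubulin Tubb3, also on chromosome 8, had a TPM of 1722 and 170, and Mapt had 265 and 18.2.

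The tissues in which Sox14 and Sox21 act gave a median of -1.75 in the list of interneuron lineages, where 5 of 5 genes tested were lower. Gad1, which makes the transmitter GABA, had a TPM of 45.4 and 3.57. In the retina and eye field, where Sox2 is needed for progenitors, 4 of 5 genes tested were lower, with a median of -2.67 and an order-statistic interval over its genes from -4.62 to 0.22. Six6 had a TPM of 33.8 and 0.419, whereas Otx2, one of the paper's ectodermal markers, had 45.2 and 36.4 and did not pass. In the pituitary and hypothalamus list, tissues of Sox3, 3 of 5 genes tested were lower and 1 was higher. Its median was -0.62, with an order-statistic interval from -3.50 to 0.50. The lower genes include Rax and Six6, which are also lower genes of the retina and eye field list, so these lists are not independent.

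Glia and Schwann cell markers were lower in 5 of 9 genes tested, with a median of -1.53, and Mbp, a protein of myelin, had a TPM of 112 and 27.4. The other 4 were neither lower nor higher past the rule. Among them was Gfap, the gene of highest TPM in the list, at 137 and 76.4. This list includes Sox10, which was counted above with the SoxE genes. Sox2 is also expressed in foregut and stratified epithelia, and their list went both ways, with 4 genes higher, 2 lower and 3 neither. Krt13, a keratin of stratified epithelium, had a TPM of 14.9 and 197, whereas the lung and forebrain factor Nkx2-1 had 74.2 and 0.789. In the lens list, 10 of 14 genes had a TPM under 1 in both libraries, and in the inner ear list no gene reached a TPM of 10.

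**Figure D4:**
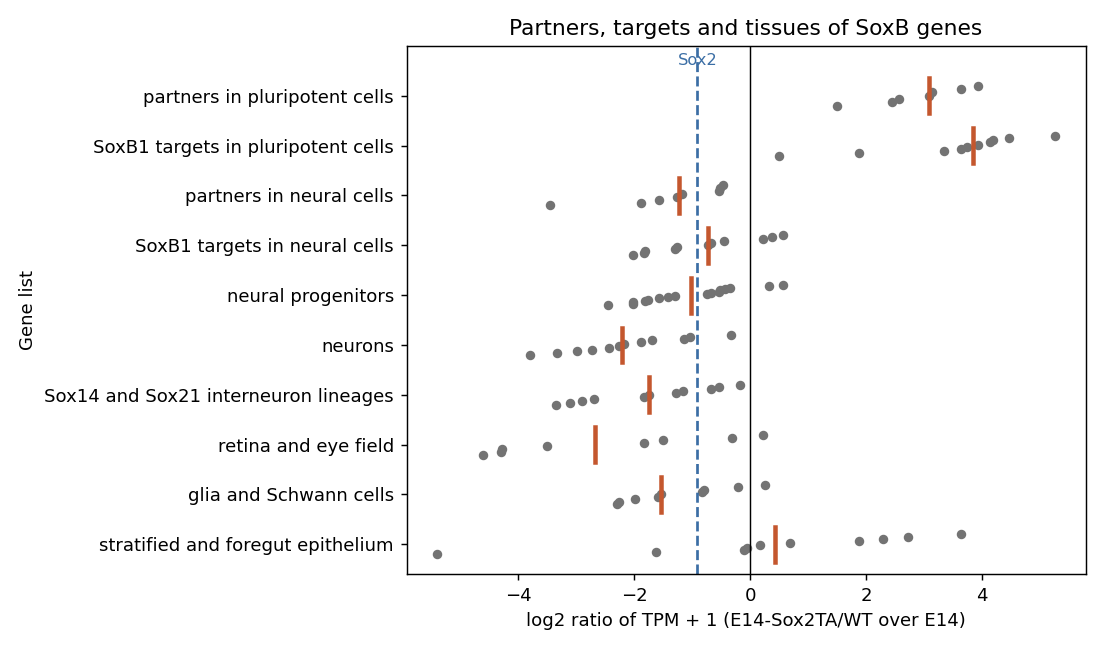
Log2 ratio of TPM + 1 (Sox2TA/WT over wild-type library) for the genes of 10 lists, with 1 gray point per gene whose TPM reached 1 in either library, an orange bar at each list's median and a dashed line at Sox2 (-0.91). The pluripotency lists lie to the right of 0 (medians 3.09 and 3.84) and the neuron list to the left (-2.22).

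Markers of other tissues were read to describe the libraries. In the blood and macrophage list 2 of 8 genes tested were higher, with a summed TPM of 1062 in the wild-type library and 1689 in the Sox2TA/WT library, and none of its 10 genes was at 0 reads in either. In the endothelium list 0 of 3 genes tested passed, and in the cartilage list 0 of 2 passed, with sums of 80.1 and 98.9 that Col2a1 led at 58.0 and 74.8. The cartilage genes Acan and Matn3, below the TPM minimum, were 3.99-fold and 4.36-fold higher in the Sox2TA/WT library, with 47 and 28 reads against 207 and 135. Of the 6 cartilage genes with a TPM of 1 or more in either library, 3 were above 0 and 3 below. Their median was 0.15, with an order-statistic interval from -0.17 to 0.95, and Col9a1 had a TPM of 14.3 and 13.7. Skeletal muscle genes were lower in 3 of 7 genes tested, with sums of 331 and 176. Endoderm genes were higher in 4 of 5, with sums of 43.0 and 342, and Cdx2, an intestinal factor of this list named after its values were seen, was at 0 reads in the wild-type library. Neural, muscle, cartilage and blood transcripts were thus present in both libraries. Since host and tumor share the same rows, whether these transcripts came from host or tumor cells cannot be told apart. The part of these tissues in the SoxB values was not tested.

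The genes nearest to each member in level over the 2 libraries were found by the Euclidean distance on log2(TPM + 1). For Sox1 these were Olig2, a factor of oligodendrocytes and motor neurons, with Ccdc184 and the receptor Ephb2, at distances from 0.058 to 0.087. The nearest to Sox2 were Maz, Fxyd6 and the metabolic enzyme Idh1, and those nearest to Sox3 were Bcl9l, Prrt2 and Mras. For Sox21 they were Ano10, Kat6a and Phf2. With 2 libraries such likeness is common, since between 114 and 534 genes lay within a distance of 0.5 of Sox1, Sox2, Sox3 and Sox21.

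On the scalings that treat every gene alike, Sox1 ranged from 4.40-fold to 5.06-fold lower, Sox3 from 3.39-fold to 3.91-fold, Sox21 from 2.19-fold to 2.52-fold and Sox2 from 1.64-fold to 1.89-fold. Centering each gene on its own chromosome placed Sox3, at 3.47-fold, above Sox1, at 3.13-fold.

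**Figure D5:**
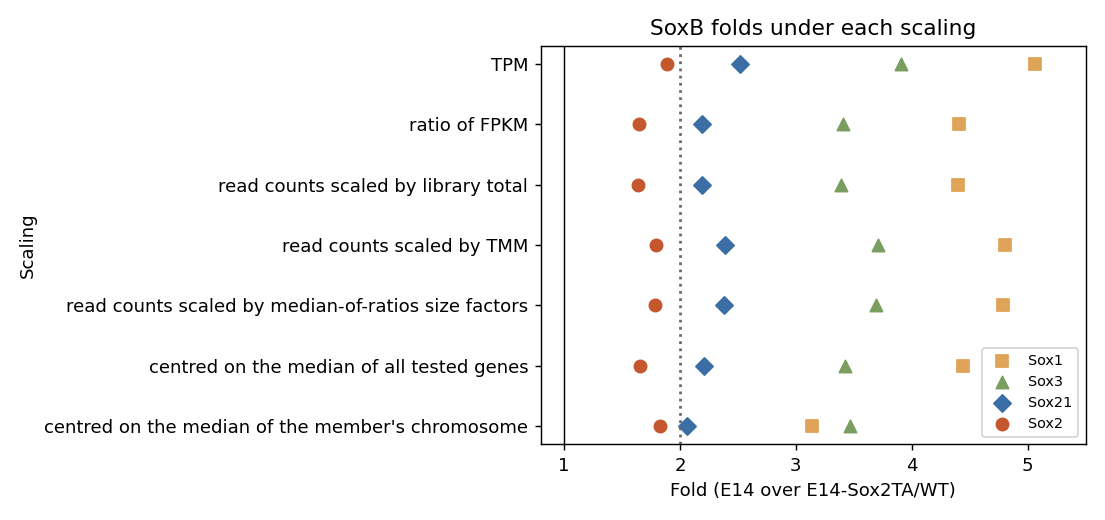
Fold (wild-type over Sox2TA/WT library) of Sox1, Sox3, Sox21 and Sox2 under each scaling, with 1 point per gene and scaling, a solid line at 1 and a dotted line at 2. Sox2 stays left of 2 and Sox21 right of 2 on each scaling, and Sox1 leads except when centered on its chromosome, where it is at 3.13 and Sox3 at 3.47. Sox14, with 3 reads in the Sox2TA/WT library, is not plotted.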

How the data were processed

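RNA-seq of polyA RNA was available for 1 E14 and 1 E14-Sox2TA/WT teratoma library. The authors deposited read counts per gene, FPKM (fragments per transcript length and mapped total) and TPM (FPKM rescaled to a fixed sum). Per the submitters' processing notes, bcl2fastq 2.20.0, Trimmomatic, HISAT2 2.1.0 and StringTie 2.1.3b were named, and the table is on mm10. Strand was not given in the sources used here. Of 45777 gene identifiers, 45679 matched RefSeq on GRCm38.p6.

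The ratio of TPM was computed without a pseudocount for single genes and with 1 added for lists. Read-count intervals were Clopper-Pearson intervals scaled to the TPM ratio, exact Poisson intervals for levels and exact conditional intervals for pairs of genes. A count of 0 allows up to 3 reads. Gene models and sequences came from GENCODE and RefSeq. The members and all 19 lists were chosen with earlier results of these data known. Genes named from a list are among its 2 genes of highest mean TPM or its 2 of largest change, unless said otherwise, and not all of these are printed. Base identity of the coding sequences took the place of the planned protein identity. The fold rule and the intervals were tested on simulated read counts that held counting error only. That simulation had no spread between teratomas, so it cannot speak to it. Alternatives were FPKM, scaling by library total, edgeR's TMM factors or median-of-ratios factors, centering, pseudocounts, the TPM filter and the fold threshold. TMM factors came from edgeR 4.0.16 in R 4.3.3, and everything else from Python 3.11.15 with scipy 1.17.1 for the intervals.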

Additional observations from a re-analysis of the deposited data

How the results depend on the processing

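No paired analysis was possible because each genotype has a single library, and for the same reason no library was left out. All 5 SoxB genes stayed lower in the Sox2TA/WT library under each of 9 alternatives. Of these 45 values, 23 stayed within the counting interval and 22 did not. FPKM and centering on all genes rescale whole libraries, so each of them moves the log2 ratio of every gene by the same amount. For the other values, apart from the pseudocounts for Sox14, the cause was not tested. The alternative without mitochondrial and hemoglobin genes, and the scaling by library total for counts of genes, were chosen after seeing the data.

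As log2 ratios, Sox1 (-2.34 on TPM) was at -2.14 with FPKM, -2.14 with library totals, -2.15 centered on all genes, -1.65 centered on its chromosome and -2.23 with a pseudocount of 1. Sox2 (-0.92) was at -0.72 with FPKM, -0.71 with library totals, -0.84 with TMM, -0.84 with median-of-ratios factors, -0.73 centered on all genes, -0.87 centered on its chromosome and -0.85 without mitochondrial and hemoglobin genes. Sox3 (-1.97) was at -1.77 with FPKM, -1.76 with library totals, -1.78 centered on all genes and -1.80 centered on its chromosome. Sox21 (-1.33) was at -1.13 with FPKM, -1.13 with library totals, -1.14 centered on all genes and -1.04 centered on its chromosome. Sox14 (-6.50) was at -2.04 with a pseudocount of 1 and -4.63 with 0.1, since its 3 reads give a level below either.

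Of all genes, 2167 were lower and 1253 higher. These became 6015 and 9156 without a TPM filter, 3508 and 3585 with a TPM of at least 1, 3742 and 2109 past 1.5-fold, and 1015 and 663 past 3-fold. With FPKM they were 1655 and 1583, with library totals 1634 and 1578, so that the share of lower genes went from 63.4% to 51.1% and 50.9%, and with TMM it was 59.3%. The SoxB genes past the rule were Sox1, Sox3 and Sox21 with FPKM, TMM and library totals as well. Sox14 joined them without the TPM filter or with a TPM of at least 1, Sox2 joined at the 1.5-fold threshold, and Sox1 and Sox3 alone passed 3-fold. Of 56 alternative list medians none changed sign. Those of Sox2ot and Sox1ot together moved to -3.43 with a pseudocount of 0.1 and -2.35 with FPKM, and the other 54 stayed within their order-statistic interval or, for lists too short for one, within the range of their genes.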
